A study of Mus musculus with 44 samples.

Results

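The comparison described here is the step from 2 h to 4 h after blood progenitors of the mouse were switched to B-lineage conditions. It rests on 3 libraries at 2 h and 3 libraries at 4 h, 6 of the 44 RNA sequencing libraries of a time course with 16 time points, chosen by their labelled time. Both groups were fetal liver induced leukocyte stem (iLS) cells of strain C57BL/6J, multipotent progenitors kept from differentiating by a fusion of the inhibitor Id3 to ERT2, a receptor domain that is active when bound by 4-hydroxytamoxifen (4-OHT). Before the switch they grew in IMDM over TSt-4, a stromal feeder line, with 4-OHT (40 nM), IL-7 (20 ng/mL) and, at 10 ng/mL each, Flt-3L and SCF. From then on they were kept over TSt-4 with IL-7 at 5 ng/mL, with no 4-OHT and with neither SCF nor Flt-3L named, so that both groups carried the fusion and had undergone the same change. The promoter of the fusion, the number of cell clones and whether replicates were separate cultures are not stated, so p-values rest on the scatter among libraries that share a time point, which may be technical. Removal of feeder cells before RNA isolation is not mentioned in the labels.

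Id proteins hold E proteins, the transcription factors that open the B-cell programme, away from DNA, so removing 4-OHT from an Id3-ERT2 cell releases them. Growth factors and fresh medium are known to set off the immediate-early response, in which Fos, Egr and Nr4a genes are switched on within minutes through existing SRF, CREB and NF-kB proteins. That response ends itself, because its products include phosphatases, inhibitors and mRNA-decay factors, and its transcripts are short-lived.

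Levels are in FPKM, fragments counted per transcript length and per mapped fragment of the library, and changes are differences of the mean log2(FPKM + 1), 4 h minus 2 h, ± SE. This scale understates the change of genes with low values. A gene was called at a Benjamini-Hochberg adjusted p under 0.05 in limma over 13907 genes tested, with 3 libraries on each side and a spread estimated over 42 libraries of 14 time points. Of these genes, 153 (1.1%) were called, 76 higher at 4 h (0.546%) and 77 lower (0.554%). A fit to the 6 libraries of the step alone called 6 genes and kept 3 of the 153. The genes called lower had a median change of -1.14, and 49 of the 77 changed at least 2-fold. For the genes called higher the median was 0.93, with 30 of 76 past 2-fold. The median over all genes tested was 0.04, with 7757 of the 13907 changes above 0 and 6022 below 0. The number called fell to 48 without 4 h replicate 1, 75 without 4 h replicate 2, 77 without 2 h replicate 2 and 78 without 2 h replicate 3. All 77 genes called lower and 73 of the 76 called higher had libraries at 4 h that did not overlap those at 2 h. Over all genes tested the libraries stood apart in that way in 7.1% for lower and 12.3% for higher. The exceptions, named after their values were seen, were Mir704, 2210021J22Rik and 1700020A23Rik. Mir29b-2 and Mir5133, called lower, are with Mir704 the small RNA genes among the calls, and small RNAs are poorly measured after poly(A) selection.

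**Figure D1:**
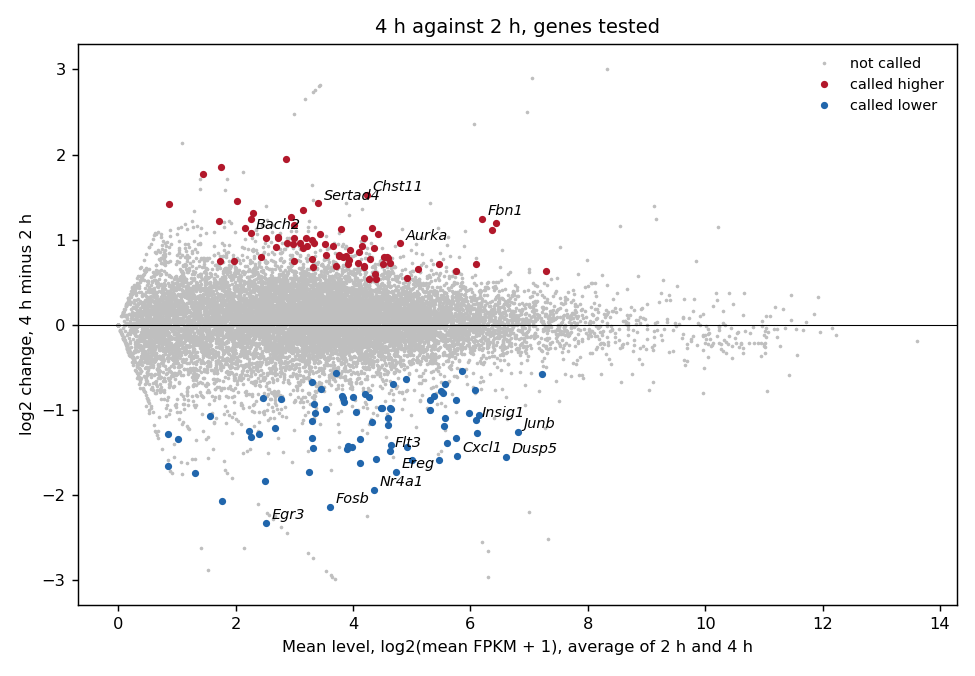
Change from 2 h to 4 h (log2(FPKM + 1), 4 h minus 2 h) against mean level (log2(FPKM + 1)) for 13852 genes, with genes called higher in red, called lower in blue and the others in grey; 55 genes beyond the axis are left out. The called genes lie on both sides of a cloud centred near the median of 0.04.

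The 6 libraries were alike in overall size. Their FPKM values summed to between 562703 and 608936, from 11983 to 12141 genes reached 1 FPKM, and small RNA genes held 12.23 to 17.12% of the sum. Sequencing depth is unknown, and relative depth estimated from the smallest values ranged from 0.529 to 1.1 times that of 2 h replicate 1. Libraries of the 2 time points correlated at r = 0.9039 to 0.9424 across genes, which are not independent replicates. The summed level of 23 tested stromal genes was 7997 ± 1178 FPKM (SD, n = 3; 6724 to 9049) at 2 h and 9203 ± 293 (8979 to 9535) at 4 h (two-sided exact permutation test, p = 0.2). That of 24 general blood-cell genes was 1373 ± 178 (1244 to 1576) at 2 h and 1168 ± 196 (942 to 1281) at 4 h (exact permutation p = 0.4), where 3 against 3 libraries cannot give a p under 0.1. The library 2 h replicate 3 had the lowest stromal and the highest blood-cell sum, and 4 h replicate 3 the lowest blood-cell sum. RNA of both feeder and blood cells was therefore present, with the stromal markers Lum and Dcn listed at 0 in all 6 libraries. Also at 0 in all 6 were the granulocyte genes Elane, Ctsg, Cebpe, S100a8, S100a9 and Ms4a3, the natural killer gene Ncr1, and the erythroid genes Gata1 and Klf1. Most other members of these lists were detected. In at least 1 of the 6 libraries, 9 of 16 myeloid genes reached 1 FPKM. So did 8 of 12 natural killer and innate lymphoid genes and 7 of 12 erythroid and megakaryocyte genes. In such mixed bulk RNA, fewer cells of a type and less RNA per cell cannot be told apart. With the mean of the stromal genes as a covariate 148 of the 153 calls were kept, and with each library scaled to its blood-cell genes 18 were kept. None of the 153 changed sign in either fit.

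Immediate-early genes had the lowest median of the 40 gene lists examined. The list of Egr, Nr4a and other immediate-early genes had 18 tested members, of which 5 were called lower and 0 higher, with a median of -0.78 and 17 of 18 changes below 0. Nr4a1, an orphan nuclear receptor induced by growth factors and receptor signals, was at 29.4, 55.0 and 34.3 FPKM in 2 h replicates 1, 2 and 3 and at 7.72, 10.1 and 10.0 in the 4 h replicates. Every 4 h library was lower than every 2 h library, and the 4 h libraries lay closer together. The log2 change of Nr4a1 was -1.94 ± 0.40 (adjusted p = 0.0095). Egr3, a zinc-finger factor, was at 10.2, 14.1 and 10.3 FPKM and then at 2.76, 0.613 and 1.53, again without overlap, and fell by 2.32 ± 0.58 on the log2 scale (adjusted p = 0.0388). Egr1 fell from 31.9, 50.8 and 36.4 to 11.4, 19.7 and 12.3 FPKM (-1.41 ± 0.35, adjusted p = 0.0391). Arc, best known from synapses and an SRF target, fell from 22.1, 31.0 and 17.6 to 7.91, 11.7 and 5.37 FPKM (-1.42 ± 0.35, adjusted p = 0.0388). Nr4a3, the other called member, fell as well (-1.34 ± 0.31, adjusted p = 0.0225), from levels of 1.20 to 3.94 FPKM. The libraries of both times stood apart for each of these genes. Egr2, at 17.1, 27.2 and 12.5 FPKM and then at 9.68, 9.69 and 4.37, did not pass the test (-1.16, adjusted p = 0.11). These calls rested on 3 libraries a side: Egr3 lost its call when any 1 library was left out (adjusted p = 0.0725 to 0.201), Nr4a1 without 4 h replicate 1 or 2 h replicate 2 (0.0725 and 0.0815), Egr1 without all but 4 h replicate 2 (0.054 to 0.2) and Arc likewise (0.0546 to 0.197).

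AP-1 is the dimer of Fos and Jun family proteins. Of its 14 listed genes 3 were called lower and 0 higher, the median was -0.72, and 13 of 14 changes were below 0. Fosb was at 10.9, 22.7 and 36.8 FPKM in the 2 h replicates and at 0.935, 7.28 and 6.89 at 4 h. The replicates spread widely, with replicate 1 lowest at both times, and the groups did not overlap. Its log2 change was -2.13 ± 0.47 (adjusted p = 0.0167). Junb, an AP-1 subunit that restrains proliferation in many cells, was far more abundant and tighter, at 159, 176 and 178 FPKM and then at 64.8, 89.0 and 62.7 (-1.25 ± 0.22, adjusted p = 0.00257). Jund fell from 86.4, 61.2 and 108 to 32.2, 29.2 and 36.1 FPKM (-1.33 ± 0.28, adjusted p = 0.0119). Fos itself was at 4.44, 23.6 and 32.8 FPKM and then at 0.442, 6.29 and 11.5, groups that overlapped, and was not called (-1.70, adjusted p = 0.265). Atf3, a stress-induced partner of Jun proteins, was at 15.5, 26.4 and 22.2 and then at 8.49, 7.55 and 5.50 FPKM and just missed the threshold (-1.44, adjusted p = 0.0721). Fosb lost its call without 4 h replicate 1, 2 h replicate 2 or 2 h replicate 3 (adjusted p = 0.21, 0.0692 and 0.134), Jund without 4 h replicate 1, 4 h replicate 2 or 2 h replicate 3 (0.0595, 0.0645 and 0.0927), and Junb kept its call without each of the 6 libraries. Summed over the 14 AP-1 genes the level went from 616 ± 35.7 FPKM at 2 h to 330 ± 25.0 at 4 h. The Kruppel-like factors, a family of zinc-finger regulators with early and late members, had 11 tested genes, all with changes below 0 (median -0.65), and 2 were called lower. Klf13 fell from 33.4 to 36.1 FPKM at 2 h to 16.0 to 18.1 at 4 h (-0.99 ± 0.21, adjusted p = 0.0119), and Klf11 from 2.69 to 4.52 to 0.884 to 1.23 FPKM (-1.07 ± 0.24, adjusted p = 0.0192). Klf13 lost its call without 4 h replicate 1 or 2 h replicate 3 (0.0656 and 0.0578), and Klf11 without 4 h replicate 1, 4 h replicate 2 or 2 h replicate 3 (0.106, 0.0764 and 0.15).

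**Figure D2:**
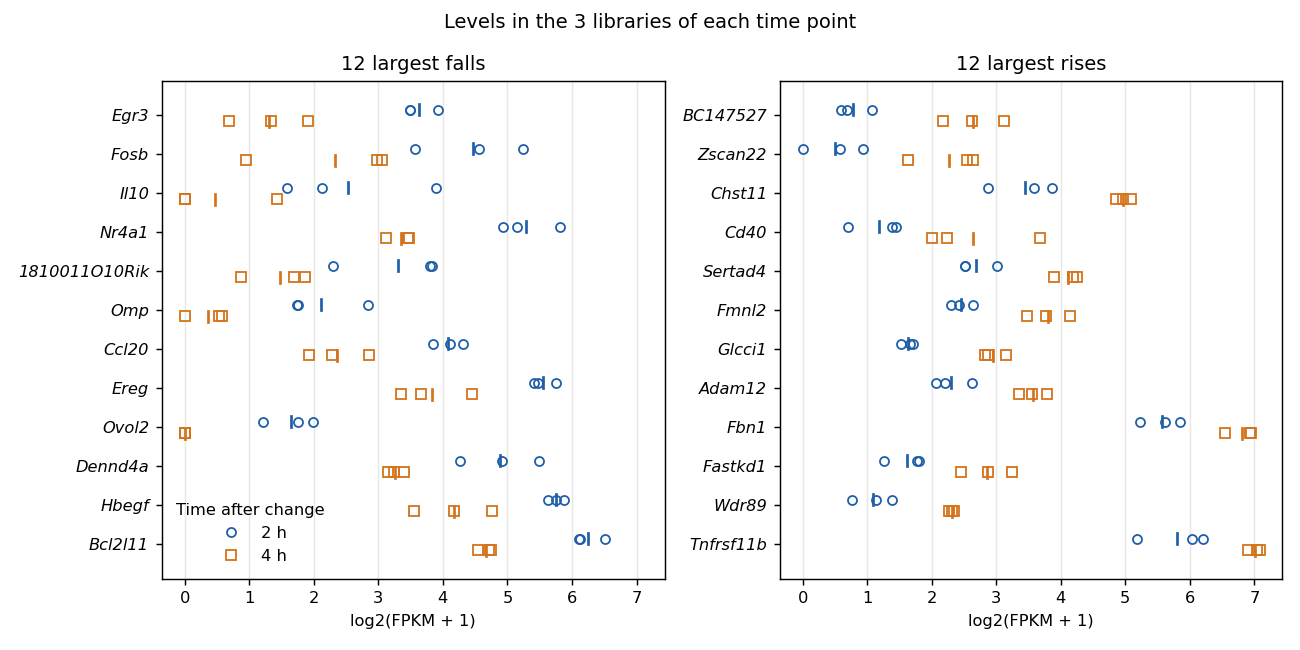
Level (log2(FPKM + 1)) in each of the 3 libraries at 2 h (blue circles) and at 4 h (orange squares), with ticks at the means, for the 12 genes called lower with the largest change and the 12 called higher with the largest change. In each of the 24 genes the 4 h libraries lie wholly to one side of the 2 h libraries; Ovol2 is listed at 0 in all 3 libraries at 4 h.

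ERK feedback genes act back on growth-factor signalling. Of 21 tested members 2 were called lower and 0 higher, with 16 changes below 0. Their median was -0.37 (-0.23 without 2 h replicate 2, -0.56 without 4 h replicate 2 and -0.20 with blood-cell scaling). Dusp5, a nuclear phosphatase that inactivates ERK, was at 153, 151 and 193 FPKM at 2 h and at 56.2, 46.1 and 65.9 at 4 h. The groups were far apart, and the highest 4 h library lay below the lowest 2 h library by more than the range of either group. The log2 change of Dusp5 was -1.55 ± 0.18 (adjusted p = 5.63e-06), and the call was kept without each of the 6 libraries and with blood-cell scaling. Spry2, an inhibitor of receptor tyrosine kinase signalling, fell from 39.2, 34.4 and 31.8 to 11.5, 16.2 and 18 FPKM (-1.17 ± 0.27, adjusted p = 0.0211). That call was lost without any library but 4 h replicate 3 (adjusted p = 0.053 to 0.166). The promoter of Dusp5 is shown because it holds the pattern of the CArG box, the site bound by SRF. It is the 250 bases before the start in RefSeq on build GRCm38.p6 at chr19:53528895-53529144, plus strand, 5′ to 3′, with 2 adjacent CArG boxes in capitals, beginning 82 and 72 bases before the start:
Dusp5: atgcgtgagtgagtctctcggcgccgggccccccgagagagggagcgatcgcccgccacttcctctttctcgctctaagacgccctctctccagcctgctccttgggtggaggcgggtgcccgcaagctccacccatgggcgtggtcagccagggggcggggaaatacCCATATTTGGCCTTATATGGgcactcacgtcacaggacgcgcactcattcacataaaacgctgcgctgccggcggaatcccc
A CArG box on either strand was found in the 250-base promoters of 1 of 50 genes called lower that had a promoter in the table (2%), of 2 of 61 genes called higher (3.28%) and of 1.5% of 9693 tested genes, with a gene of several promoters counted once. The rest of the 77 genes called lower, among them Egr1, Egr3 and Arc, had no promoter to search. A match is a description of the letters and not a measured site.

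Feedback on NF-kB, the factor of the inflammatory response, was a further group. Of 18 genes in the NF-kB list 1 was called lower and 0 higher, with a median of -0.30 and 16 changes below 0. Nfkbia encodes the inhibitor that NF-kB induces to return itself to the cytoplasm. It was at 74.2, 69.8 and 60.2 FPKM at 2 h and at 29.8, 29.7 and 34.4 at 4 h, with no overlap (-1.09 ± 0.27, adjusted p = 0.037). The call on Nfkbia was lost when any 1 of the 6 libraries was left out (adjusted p = 0.0613 to 0.152). Cxcl1, a neutrophil-attracting chemokine, was at 96.1, 106 and 69.6 FPKM and then at 43.7, 24.9 and 24.9. The lowest 2 h library, replicate 3, was still above the highest 4 h library. It fell by 1.54 ± 0.36 (adjusted p = 0.0248), a call lost without 4 h replicate 2 or 3 or 2 h replicate 1 or 2 (0.0836 to 0.129). The promoters of Nfkbia and Cxcl1 are shown because both hold a kappa B site, searched on both strands as GGGA, any base, then TTTCC (read on the other strand for Nfkbia). The match is in capitals, beginning 29 bases before the start of Nfkbia (chr12:55492648-55492897, minus strand) and 71 bases before that of Cxcl1 (chr5:90890995-90891244, plus strand), in RefSeq on GRCm38.p6:
Nfkbia: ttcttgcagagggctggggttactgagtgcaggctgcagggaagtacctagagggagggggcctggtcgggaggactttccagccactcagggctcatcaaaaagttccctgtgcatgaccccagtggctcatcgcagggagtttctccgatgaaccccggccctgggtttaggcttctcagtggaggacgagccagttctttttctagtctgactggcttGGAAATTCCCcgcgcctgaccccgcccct
Cxcl1: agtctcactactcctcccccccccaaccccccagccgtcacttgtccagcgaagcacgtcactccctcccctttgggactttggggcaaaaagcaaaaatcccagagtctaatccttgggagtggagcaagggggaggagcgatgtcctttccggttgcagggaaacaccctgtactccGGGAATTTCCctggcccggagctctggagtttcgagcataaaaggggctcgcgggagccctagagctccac
They were 2 of the 50 genes called lower that had a promoter in the table (4%). The pattern was in a promoter of 1 of 61 genes called higher (1.64%) and of 0.464% of the tested genes.

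The cytokine, chemokine and prostaglandin list had 22 tested genes, of which 3 were called lower and 0 higher, with a median of -0.52. Besides Cxcl1 these were Ccl20, a chemokine that attracts lymphocytes and dendritic cells, and Lif, a cytokine of the IL-6 family. Ccl20 fell from 13.4, 18.8 and 16.2 to 2.80, 6.24 and 3.88 FPKM (-1.73 ± 0.45, adjusted p = 0.0477). Lif fell from 12.4, 16.4 and 17.0 to 3.49, 4.91 and 6.81 FPKM (-1.45 ± 0.35, adjusted p = 0.0299). Il10, an anti-inflammatory cytokine outside the list, was at 2.00, 3.38 and 13.9 FPKM, highest in replicate 3, and was listed at 0 in 4 h replicates 1 and 2 and at 1.68 in replicate 3. The log2 change of Il10 was -2.06 ± 0.37 (adjusted p = 0.0027), and its groups did not overlap. Ptgs2, the inducible cyclooxygenase, was at 79.1, 94.0 and 85.0 FPKM and then at 47.1, 42.4 and 86.9, with 4 h replicate 3 at the 2 h level, and was not called (-0.61). Of 15 growth factor genes 2 were called lower and 0 higher (median -0.23, or -0.12 without 4 h replicate 1 and -0.40 without 4 h replicate 3), both ligands of the EGF receptor family. Ereg was at 41.5, 53 and 43.6 FPKM and then at 11.7, 9.26 and 20.9 (-1.72 ± 0.29, adjusted p = 0.00144). Hbegf was at 48.6, 52.8 and 57.9 FPKM and then at 10.8, 17.1 and 26.1 (-1.59 ± 0.36, adjusted p = 0.0178). In both genes all 4 h libraries were below all 2 h libraries. Ereg and Il10 kept their calls without each library. Ccl20 lost it without any 1 of the 6 (adjusted p = 0.0615 to 0.237), Lif without 4 h replicate 1 or 2 or 2 h replicate 2 or 3 (0.0985 to 0.192), and Hbegf without the same 4 libraries (0.0631 to 0.166).

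TGF-beta and BMP response genes had 16 tested members with 2 called lower and 0 higher, while their median was 0.06, close to that of all genes. Smad7, the inhibitory Smad, fell from 23.8, 26.2 and 34.8 to 8.08, 13.7 and 16.0 FPKM (-1.14 ± 0.26, adjusted p = 0.0183). Tgfb1, the ligand, fell from 67.8, 72.8 and 75.7 to 32.3, 44.8 and 40.0 FPKM (-0.88 ± 0.20, adjusted p = 0.0187). Neither gene's groups overlapped. Furin, a protease that processes the TGF-beta precursor, was at 87.1, 93.5 and 143 FPKM and then at 40.3, 48.1 and 41.6 (-1.26, adjusted p = 0.000298). Tgfbr1, the type I receptor (-0.81, adjusted p = 0.0491), and Smad3, a signal transducer (-0.69, adjusted p = 0.0459), were also called lower. Furin, Tgfbr1 and Smad3 are outside the list and were chosen after their values were seen. Smad7 lost its call without 4 h replicate 1 or 2 h replicate 2 or 3 (0.192, 0.0532 and 0.127), and Tgfb1 without the same 3 libraries (0.157, 0.0704 and 0.0859).

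Genes of the circadian clock, a loop of repressors that acute signals also induce, had 17 tested members with 2 called lower and 0 higher (median -0.42, 14 changes below 0). Bhlhe40, a repressor of clock and metabolic genes, was at 73.5, 76.2 and 82.5 FPKM and then at 25.8, 33.2 and 28.2. The spread within each time was small against the gap between them, and the log2 change was -1.39 ± 0.21 (adjusted p = 0.000645). Per1, also a glucocorticoid-induced gene, was at 8.24, 14.7 and 16.1 FPKM and then at 4.70, 7.67 and 6.35 (-0.92 ± 0.20, adjusted p = 0.0152). Nfil3, a repressor needed for innate lymphoid cells, was at 26.4, 22.0 and 38.0 FPKM and then at 10.7, 11.2 and 11.2 without passing the test (-1.27, adjusted p = 0.0724). Bhlhe40 kept its call without each library, and Per1 lost it without 4 h replicate 1 or 2 h replicate 2 or 3 (0.152, 0.107 and 0.129). The sum over the clock genes was 225 ± 8.34 FPKM at 2 h and 134 ± 3.59 at 4 h. Bhlhe40 overlaps 0610040F04Rik, and counting by strand is not stated, so reads of overlapping genes cannot be told apart.

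Cholesterol synthesis and uptake are controlled by SREBP factors, which sterols hold back. Of the 21 tested genes of this pathway 3 were called lower and 0 higher, with a median of -0.24 and 18 changes below 0. Insig1, which encodes a brake on SREBP processing, was at 101, 112 and 86.5 FPKM and then at 45.5, 42.9 and 46.9 (-1.12 ± 0.21, adjusted p = 0.00378). The libraries of a time lay close together, the times did not overlap, and the call on Insig1 was kept without each library. Srebf2, the factor that drives the pathway, was at 71.9, 64.6 and 63.9 FPKM and then at 61.2, 68.9 and 59.7. Abcg1, a sterol exporter outside the list and chosen after its values were seen, was also called lower (-1.25, adjusted p = 0.0409). No sterol regulatory element, searched as TCACNCCAC on both strands, was in the promoters of the 50 genes called lower that had one in the table. Of the called genes of this pathway, Insig1 alone had a promoter to search.

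Regulators of mRNA decay and of cell death were among the falls as well. In the mRNA decay list 2 of 12 genes were called lower and 0 higher (median -0.44, or -0.25 without 2 h replicate 2). Zc3h12a, an RNase that cleaves cytokine transcripts, was at 30.7, 30.0 and 30.4 FPKM and then at 14.5, 18.3 and 12.6 (-0.98 ± 0.18, adjusted p = 0.00373), a call kept without each library. Zfp36l2, a binder of AU-rich elements needed in lymphoid progenitors, went from 189, 170 and 184 to 124, 135 and 105 FPKM (-0.58 ± 0.15, adjusted p = 0.0401), a call lost without any 1 of the 6 (0.0583 to 0.176). In the p53 target list 2 of 20 genes were called lower and 0 higher, with a median of -0.06. They were Bbc3, which encodes the pro-apoptotic protein PUMA (-1.02 ± 0.25, adjusted p = 0.0381), and the kinase gene Plk2 (-1.05 ± 0.26, adjusted p = 0.0333). Bbc3 was at 18.2, 18.5 and 32.0 FPKM and then at 8.01, 12.2 and 11.5. Plk2 was at 111, 107 and 83.2 FPKM and then at 38.0, 49.2 and 57.4. The groups of both genes stood apart. Bcl2l11, which encodes the death-promoting BIM and lies outside the lists, was at 69.0, 68.1 and 90.6 FPKM and then at 22.4, 26.0 and 25.2 (-1.58 ± 0.35, adjusted p = 0.0152). The 4 h libraries lay close together and far below those at 2 h. Bcl2l11 overlaps Acoxl in the annotation. Bbc3 lost its call without each library but 2 h replicate 1 (0.054 to 0.262), Plk2 without 4 h replicate 1 or 2 or 2 h replicate 1 or 2 (0.0899 to 0.21), and Bcl2l11 without 4 h replicate 1 or 2 h replicate 3 (0.0862 and 0.0881).

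Flt3, the receptor of the cytokine Flt-3L and a mark of multipotent progenitors, was the 1 gene of 13 in the stem and progenitor list that was called. It was at 30.3, 32.1 and 60.2 FPKM at 2 h, highest in replicate 3, and at 16.5, 12.0 and 12.0 at 4 h (-1.48 ± 0.34, adjusted p = 0.0225). Kit, the SCF receptor, was at 16.7, 14.5 and 14.3 FPKM and then at 10.6, 11.4 and 10.4, without overlap, and was not called (-0.45). In the list of the IL-7 receptor, STAT5 and cytokine feedback, 1 of 18 genes was called lower and 0 higher (median -0.21, or -0.45 without 4 h replicate 1 and -0.38 without 2 h replicate 1). That was Cish, a STAT5 target that dampens cytokine receptors, at 36.1, 26.2 and 43.5 FPKM and then at 8.96, 12.9 and 11.4 (-1.57 ± 0.37, adjusted p = 0.0264). Il7r was at 5.59, 5.94 and 7.75 FPKM and then at 8.06, 4.45 and 4.79, with overlapping groups (-0.16). Flt3 and Cish both kept their calls with blood-cell scaling. Flt3 lost it without any 4 h replicate or 2 h replicate 3 (0.0535 to 0.179), and Cish without each library but 2 h replicate 2 (0.0603 to 0.154). The library highest in Flt3, 2 h replicate 3, also had the highest blood-cell sum (1576 FPKM, against 1244 as the lowest at 2 h). The part of blood-cell RNA in the change of Flt3 was not tested beyond that scaling.

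Genes of the E and Id proteins and of the B lineage showed few calls in this step. None of 9 E and Id protein genes was called (median -0.13). Id3 was at 110, 104 and 93.9 FPKM and then at 69.2, 94.2 and 97.9 (-0.25 ± 0.38, adjusted p = 0.877). Its reads do not separate the progenitors' own gene, the fusion and the gene of the feeder cells. From 0 h to 1 h, as the stromal sum rose, Id3 was called higher (2.11), and the part of feeder RNA in its level was not tested. Id2 was at 46.3, 43.9 and 51.6 FPKM and then at 25.8, 28.5 and 20.9, without overlap, and missed the threshold (-0.90 ± 0.25, adjusted p = 0.0724). Tcf3, which encodes the E proteins E12 and E47, was at 45.1, 44.0 and 46.8 FPKM and then at 45.5, 57.2 and 49.0 (0.15). Among 18 B-lineage transcription factor genes 1 was called, higher, with a list median of -0.13 (-0.03 without 2 h replicate 3). It was Bach2, a repressor that is needed for early B-cell development, at 2.20, 2.17 and 2.41 FPKM and then at 7.36, 5.78 and 4.83 (1.08 ± 0.22, adjusted p = 0.00931). The 2 h libraries of Bach2 were nearly equal and the 4 h libraries all higher. The call was lost without 4 h replicate 1 (adjusted p = 0.0902), and Bach2 overlaps the antisense gene Bach2os. Ebf1, the factor that commits cells to the B lineage, was at 31.8, 40.5 and 17.9 FPKM and then at 16.8, 11.6 and 11.6, groups that did not overlap, and was not called (-1.06 ± 0.33, adjusted p = 0.114). At 1 h against 0 h, between which the stromal sum rose, Ebf1 was called higher (1.28). Whether its RNA came from blood or feeder cells was not tested. Pax5 was at 0.440, 3.70 and 4.40 FPKM and then at 1.66, 5.18 and 2.31 (0.19). None of 21 genes of the pre-B receptor and the B-cell surface was called. Their median was -0.28, with 17 of 21 changes below 0, and it was -0.84 between the libraries of replicate number 3 but 0.00 for numbers 1 and 2; without 2 h replicate 3 it was -0.01 and without 4 h replicate 3 -0.12. Cd79a was at 5.51, 4.64 and 7.87 FPKM and then at 2.23, 5.95 and 3.31, and Igll1 at 9.29, 5.59 and 15.7 and then at 11.3, 1.12 and 5.58, both with overlap. None of 10 V(D)J recombination genes was called (median -0.02). Rag1 was at 0.0684, 0.806 and 1.87 FPKM and then at 2.33, 1.26 and 1.08.

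Mitosis genes had the highest median of the 40 lists. The median of the 22 listed mitosis genes was 0.46. All 22 changes were above 0, as were 7757 of the 13907 over all genes tested. In 15 the libraries stood apart with 4 h higher, as they did in 12.3% of all genes tested, yet 1 was called. Of the 22, 14 had an unadjusted p under 0.05 in limma, as had 1667 of all 13907 genes tested (12%). The called gene was Aurka, the kinase that matures centrosomes and builds the spindle, at 17.9, 18.4 and 20.6 FPKM and then at 34.9, 31.4 and 48.6. The 2 h libraries were close together, and 4 h replicate 3 was highest (0.96 ± 0.21, adjusted p = 0.0152). Its call was lost without 4 h replicate 3, 2 h replicate 1 or 2 h replicate 2 (0.101, 0.0546 and 0.0626). Plk1, the kinase of mitotic entry, was at 19.5, 16.4 and 22.7 FPKM and then at 33.4, 27.1 and 35.8 without passing the test (0.69, adjusted p = 0.136). Further mitotic genes outside the list, chosen after their values were seen, were called higher. Ccnf, a cyclin and F-box protein, was at 9.92, 6.94 and 8.47 FPKM and then at 17.9, 18.5 and 22.3 (1.13, adjusted p = 0.00603). Cdca2, a phosphatase anchor on mitotic chromosomes, was at 5.43, 2.25 and 5.41 FPKM and then at 10.2, 8 and 14 (1.17, adjusted p = 0.00606). Sgol2, a guardian of centromere cohesion, was at 3.93, 3.26 and 3.48 FPKM and then at 10.4, 6.69 and 8.23 (1.03, adjusted p = 0.00685). The motor genes Kif18a (0.92) and Kif14 (0.76), Fam83d (1.00), Troap (0.96) and Kpna2 (0.63) were also called higher. For comparison, the 22 DNA replication genes had a median of 0.03 with 0 called, and the 11 D cyclin and Cdk inhibitor genes a median of 0.05 with 0 called; differences between the lists were not tested.

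Mitotic promoters often carry CCAAT boxes, and the promoter of Aurka is shown for that reason. It is the RefSeq sequence of 250 bases before the start on GRCm38.p6 (chr2:172370571-172370820, minus strand), with both CCAAT boxes in capitals, at 51 and 19 bases before the start:
Aurka: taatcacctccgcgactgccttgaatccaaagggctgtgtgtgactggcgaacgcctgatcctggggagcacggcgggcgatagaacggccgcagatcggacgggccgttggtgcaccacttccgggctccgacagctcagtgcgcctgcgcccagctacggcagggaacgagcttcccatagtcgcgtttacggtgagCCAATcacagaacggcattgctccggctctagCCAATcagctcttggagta
CCAAT, searched on both strands, was in a promoter of 33 of 61 genes called higher (54.1%), of 22 of 50 genes called lower (44%) and of 40.8% of the tested genes. Counted over promoters, the shares were 44.0%, 38.5% and 35.5%. Another of the 8 patterns searched, TTTGAA (CHR), was in a promoter of 8 of 61 genes called higher (13.1%). Among genes called lower the share was 6%, and among the tested genes 13.1%. The promoter of Aurka held no match to it. Aurka overlaps Cstf1 in the annotation.

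Ribosome biogenesis genes, which build ribosomal subunits in the nucleolus, were a further list with called rises. Of 31 tested members 2 were called higher and 0 lower, with a median of 0.30 and 28 changes above 0. Utp20, of the small-subunit processome, was at 12.0, 15.2 and 14.9 FPKM and then at 25.1, 24.7 and 23.6 (0.77 ± 0.17, adjusted p = 0.0187). Wdr12, of the PeBoW complex for the large subunit, was at 11.6, 12.2 and 11.9 FPKM and then at 24.6, 23.1 and 22.8 (0.93 ± 0.19, adjusted p = 0.00806). All libraries of a time lay within a narrow range in both genes and the times stood apart. Nop56, a core protein of small nucleolar ribonucleoproteins, was at 129, 159 and 151 FPKM and then at 210, 221 and 211 and missed the threshold (0.55, adjusted p = 0.0562). Outside the list, and chosen after their values were seen, the processome genes Pwp2 (0.80, adjusted p = 0.0401) and Wdr75 (0.65, adjusted p = 0.0152), Wdr3 (0.60) and Esf1 (0.79), and Ftsj3, an rRNA methyltransferase (0.72, adjusted p = 0.012), were called higher. Pwp2 was at 16.1, 16.2 and 16.8 FPKM and then at 30.5, 27.1 and 30.0. Utp20 lost its call without 4 h replicate 1 or 2 or 2 h replicate 1 (0.0919, 0.0745 and 0.106), and Wdr12 without 4 h replicate 1 (0.0582). Wdr12 overlaps Carf. The summed level of the ribosome biogenesis list was 2423, 2696 and 2658 FPKM at 2 h and 3369.7, 2949 and 3128 at 4 h, without overlap.

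**Figure D3:**
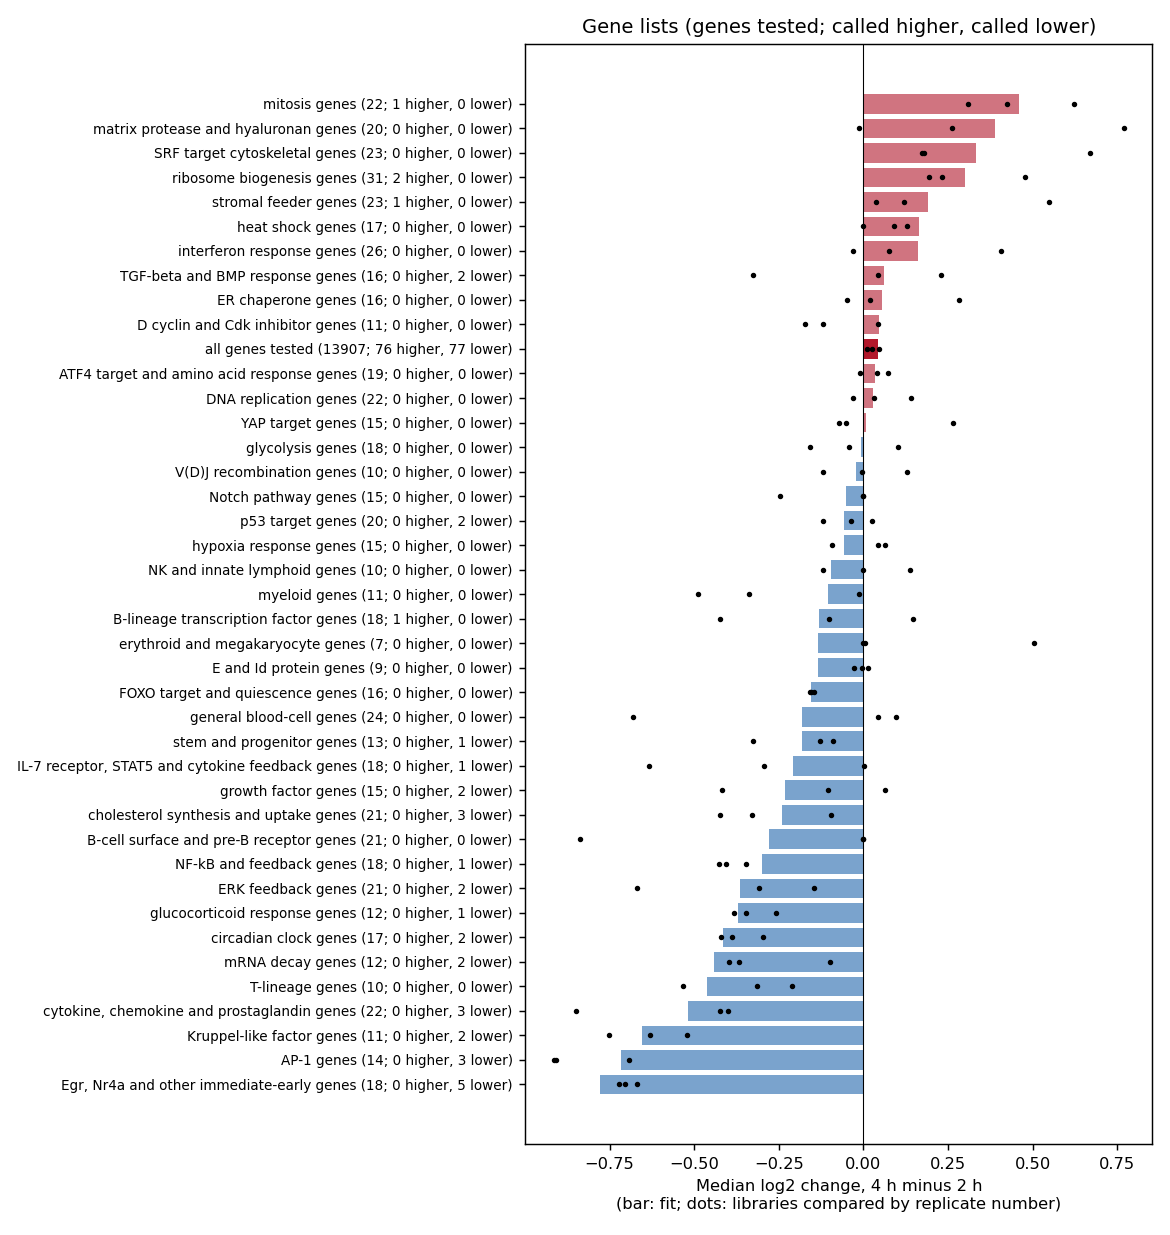
Median change from 2 h to 4 h (log2(FPKM + 1), 4 h minus 2 h) of each of 40 gene lists and of all genes tested, with bars for the fitted change and dots for the medians between libraries of the same replicate number, which the labels do not describe as paired. The immediate-early, AP-1 and Kruppel-like factor lists lie at the bottom (-0.78, -0.72 and -0.65) and the mitosis list at the top (0.46), while all genes are at 0.04.

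Fbn1, which encodes fibrillin of elastic microfibrils, was the 1 called gene of 23 in the stromal feeder list. The list median was 0.19 with 21 changes above 0 (0.08 without 2 h replicate 3 and 0.36 without 2 h replicate 2). With the stromal mean as a covariate the list median was -0.06. That value is near 0 by construction, because the mean is taken over these same 23 genes, Fbn1 included. Fbn1 was at 47.9, 56.3 and 36.5 FPKM and then at 121, 122 and 92.2 (1.24 ± 0.31, adjusted p = 0.0381). Tnfrsf11b, the RANKL decoy receptor osteoprotegerin, was at 72.3, 64.3 and 35.4 FPKM and then at 118, 130 and 134 (1.20 ± 0.27, adjusted p = 0.0167). In both genes 2 h replicate 3, the library with the lowest stromal sum, was the lowest. Chst11, a sulfotransferase of chondroitin, was at 13.5, 11.1 and 6.35 FPKM and then at 33.0, 28.0 and 30.2 (1.52 ± 0.30, adjusted p = 0.00502). Adam12, a membrane metalloprotease, was at 3.61, 5.18 and 3.17 FPKM and then at 9.17, 12.8 and 10.7 (1.27 ± 0.25, adjusted p = 0.00574). All 4 genes had libraries that stood apart, and each kept its call with the stromal mean as a covariate, while none did with blood-cell scaling. Their changes were larger with that scaling, at 1.41 for Fbn1, 1.37 for Tnfrsf11b, 1.68 for Chst11 and 1.41 for Adam12, though not called. Adam12 kept its call without each library. Chst11 lost it without 2 h replicate 3 (0.0629), Tnfrsf11b without any 4 h replicate or 2 h replicate 3 (0.0562 to 0.163) and Fbn1 without each library but 4 h replicate 3 (0.0576 to 0.189). The 23 SRF target cytoskeletal genes had a median of 0.33 and 20 changes above 0, and the 20 matrix protease and hyaluronan genes a median of 0.39 with 13 above 0. None of either list was called. With the stromal mean as a covariate the SRF median was 0.19 and the protease median 0.12. Without 2 h replicate 3, the library with the lowest stromal sum, they were 0.20 and 0.15.

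The other large rises had no shared list. Zscan22, a zinc-finger gene, was at 0.914, 0 and 0.499 FPKM and then at 4.84, 5.23 and 2.11 (1.77 ± 0.33, adjusted p = 0.00373). BC147527 was at 0.607, 0.511 and 1.10 FPKM and then at 5.17, 7.66 and 3.51 (1.85 ± 0.36, adjusted p = 0.00574), and overlaps Gm20900. These are low levels, at which the pseudocount compresses the change. Sertad4 was at 7.04, 4.74 and 4.73 FPKM and then at 17.3, 18 and 13.9 (1.43 ± 0.26, adjusted p = 0.00365). Fmnl2, a formin that lengthens actin filaments, was at 5.24, 4.35 and 3.91 FPKM and then at 12.7, 16.7 and 10.1 (1.35 ± 0.22, adjusted p = 0.00144). Glcci1, a glucocorticoid-induced gene, was at 2.28, 2.17 and 1.88 FPKM and then at 7.87, 6.07 and 6.30 (1.31 ± 0.28, adjusted p = 0.0122). In each of these 5 genes every 4 h library was above every 2 h library. Cd40, the co-stimulatory receptor of B cells that stromal cells can also carry, was at 0.635, 1.60 and 1.73 FPKM and then at 11.8, 3.74 and 3, with 4 h replicate 1 far above the others (1.46 ± 0.38, adjusted p = 0.0498). Cd40 lost its call with every library left out but 4 h replicate 3 (0.0675 to 0.382). Fastkd1, a mitochondrial RNA-binding protein gene (1.24 ± 0.30, adjusted p = 0.0271), and Wdr89 (1.22 ± 0.28, adjusted p = 0.0236) complete the set of the largest rises. Zscan22, Sertad4 and Fmnl2 kept their calls without each library. BC147527 lost it without 4 h replicate 2 (0.0603), Glcci1 without 4 h replicate 1 or 2 h replicate 3 (0.0874 and 0.0609), Fastkd1 without 4 h replicate 1 or 3 or 2 h replicate 2 or 3 (0.062 to 0.199) and Wdr89 without each library but 2 h replicate 3 (0.068 to 0.129).

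Of the largest falls outside the groups above, Dennd4a, an activator of Rab10, was at 18.2, 29.0 and 44.0 FPKM and then at 8.50, 9.49 and 7.91 (-1.62 ± 0.24, adjusted p = 0.000442), and kept its call without each library. Replicates spread at 2 h and were level at 4 h. 1810011O10Rik (Tcim in RefSeq) was at 12.9, 13.2 and 3.92 FPKM and then at 2.22, 2.64 and 0.824 (-1.84 ± 0.48, adjusted p = 0.0484), a call lost without each library but 2 h replicate 3 (0.0784 to 0.225). Omp, which overlaps Capn5, was at 2.34, 2.37 and 6.18 FPKM and then at 0.443, 0 and 0.492 (-1.74 ± 0.35, adjusted p = 0.00603), a call lost without 4 h replicate 2 or 2 h replicate 3 (0.0583 and 0.082). Ovol2, an epithelial zinc-finger factor, was at 1.31, 2.95 and 2.39 FPKM at 2 h and listed at 0 in all 3 libraries at 4 h and at 0, 0.5, 1 and 6 h. It passed the filter on low values only through its 2 h libraries, so its place among the 77 calls is a description, with no fold or p given. Mir29b-2, Mir704 and 1700020A23Rik also passed the filter only through their higher time.

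Lists with 0 genes called in either direction covered several stress and metabolic responses. Their medians, beside 0.04 for all genes tested, were 0.16 for 26 interferon response genes, 0.16 for 17 heat shock genes, 0.06 for 16 ER chaperone genes and 0.04 for 19 ATF4 target genes. They were -0.01 for 18 glycolysis genes, -0.06 for 15 hypoxia response genes, -0.05 for 15 Notch pathway genes, 0.01 for 15 YAP target genes and -0.16 for 16 FOXO target genes. Of these only the heat shock median kept its sign under every alternative run (0.02 without 2 h replicate 1), and the interferon median was -0.24 without 2 h replicate 3 and 0.62 without 4 h replicate 3. Among lists of other blood lineages, 10 T-lineage genes had a median of -0.46, 11 myeloid genes -0.10, 10 natural killer genes -0.10 and 7 erythroid and megakaryocyte genes -0.13, with 0 called in each. The medians of the natural killer, erythroid, E and Id protein, V(D)J, TGF-beta, p53, DNA replication and D cyclin lists also changed sign under at least 1 alternative. Foxo1, Hes1 and Myc, followed whether called or not, changed by -0.22, -0.05 and -0.28 and were not called.

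The levels at the neighbouring times place the step in the course of each gene. Leaving out the 3 small RNA genes, the 2 h mean was the highest of the 9 time points from 0 to 12 h in 47 of the 75 genes called lower, and 1 h was the highest in 14, 0.5 h in 6 and 0 h in 8. Of the 75 genes called higher, 2 h was the lowest mean in 39 and 0 h in 25, and 4 h was the highest in 25. These counts use the 2 h and 4 h libraries themselves and describe the genes without testing them. The mix of RNA differed at 0 h: 0 h libraries had a stromal sum of 1864 ± 970 FPKM (SD, n = 3) and 0.5 h libraries one of 7307 ± 552. Their blood-cell sums were 3053 ± 457 and 1567 ± 56.2 FPKM, and the part of this in changes from 0 h was not tested gene by gene. Fosb began at 34.3 ± 14.6 FPKM (SD, n = 3) and reached 239 ± 49.5 at 0.5 h, with 152 ± 74.4 left at 1 h, so that by 2 h (23.5 ± 13.0) most of its decline had passed. Nr4a1 likewise went from 231 ± 70.5 at 0.5 h to 39.6 ± 13.6 at 2 h. Dusp5 was different: its mean was 124 ± 13.0 at 0.5 h, then 142 ± 10.6 at 1 h and, highest, 166 ± 23.6 at 2 h, before 56.1 ± 9.90 at 4 h. Insig1 had a mean of 57.1 ± 9.63 at 0 h and 99.7 ± 12.8 at 2 h, then 45.1 ± 2.05 at 4 h and 19.8 ± 3.04 at 6 h, below its start. Flt3 had a mean of 145 ± 5.82 at 0 h that went through 76.6 ± 9.31 (0.5 h) and 40.9 ± 16.7 (2 h) to its lowest, 13.5 ± 2.57, at 4 h, and was 29.0 ± 2.74 at 8 h. The mean of Aurka was 18.9 ± 1.41 at 2 h, against 32.1 ± 6.03 at 0 h, 38.3 ± 9.06 at 4 h and 33.9 ± 3.16 at 6 h. Wdr12 had the same shape, with 22.8 ± 2.93 at 0 h, 11.9 ± 0.293 at 2 h and 23.5 ± 0.986 at 4 h. Utp20 instead went from 8.73 ± 1.84 at 0 h through 14 ± 1.77 at 2 h to 24.5 ± 0.759 at 4 h and 27.1 ± 0.727 at 6 h. Bach2 stood highest at 4 h (5.99 ± 1.28) and was at 2.20 ± 0.200 at 12 h.

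**Figure D4:**
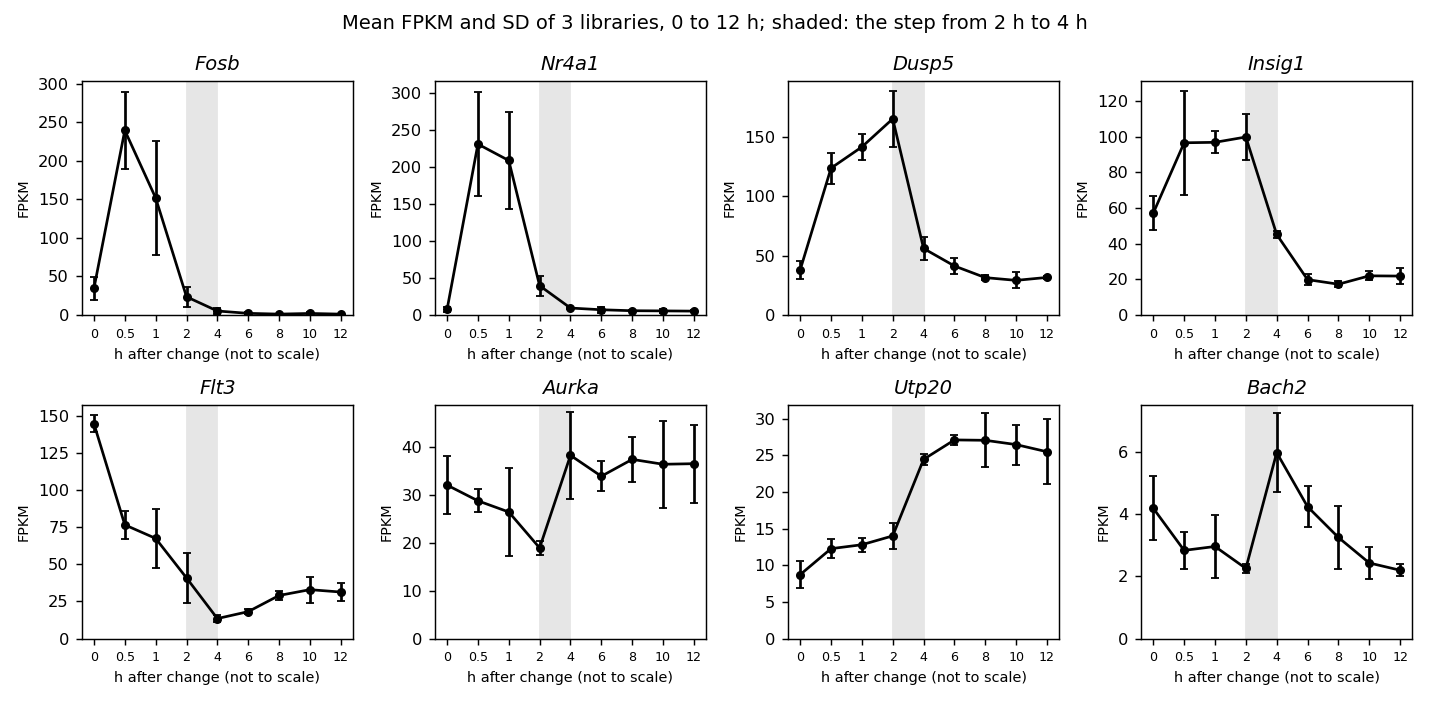
Mean level (FPKM, ± SD over 3 libraries) of 8 genes at the time points from 0 to 12 h (x axis not to scale), with the step from 2 h to 4 h shaded. Fosb and Nr4a1 had most of their decline before 2 h, Dusp5 and Insig1 had their highest means at 2 h, and Aurka was lowest there.

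Comparisons of means that share no library with this step show how the same genes behaved around it. Their calls use the same spread of each gene, estimated over 42 libraries that include those of the step. The calls of the 3 comparisons are therefore not independent. Of the 77 genes called lower from 2 h to 4 h, 41 (53.2%) were called higher at 1 h against 0 h, where 16.8% of all tested genes were, and 7 (9.09%) were called lower, where 15.3% were. Between these times the stromal sum went from 1015-2920 to 7607-9495 FPKM and the mean blood-cell sum from 3053 to 1398 FPKM. Adding the stromal mean to the fit left 35 genes called at 1 h against 0 h, where 4466 were called without it. The stromal sums of these times did not overlap, so this fit cannot tell the time from the amount of stromal RNA. At 6 h against 1 h, 52 of the 77 (67.5%) were called lower and 1 (1.3%; Mir5133, named after its value was seen) was called higher, where 2.6% and 2.4% of all tested genes were. Those 52 genes are 14.4% of all genes called lower in that comparison. For the early factors the change from 1 h to 6 h was -5.62 for Fosb, -4.79 for Nr4a1 and -3.30 for Arc. Flt3, called lower at 1 h against 0 h (-1.13), was called lower at 6 h against 1 h as well (-1.80). Of the 76 genes called higher from 2 h to 4 h, 20 (26.3%) were called higher and 17 (22.4%) lower at 1 h against 0 h. At 6 h against 1 h 33 of them (43.4%) were called higher and 0 lower; the 33 are 9.88% of the genes called higher there. Utp20 (1.03), Wdr12 (0.65) and Chst11 (1.65) were among them, while Aurka was not (0.39). The comparisons of 1 h with 0 h and of 6 h with 1 h share the 1 h libraries with each other.

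**Figure D5:**
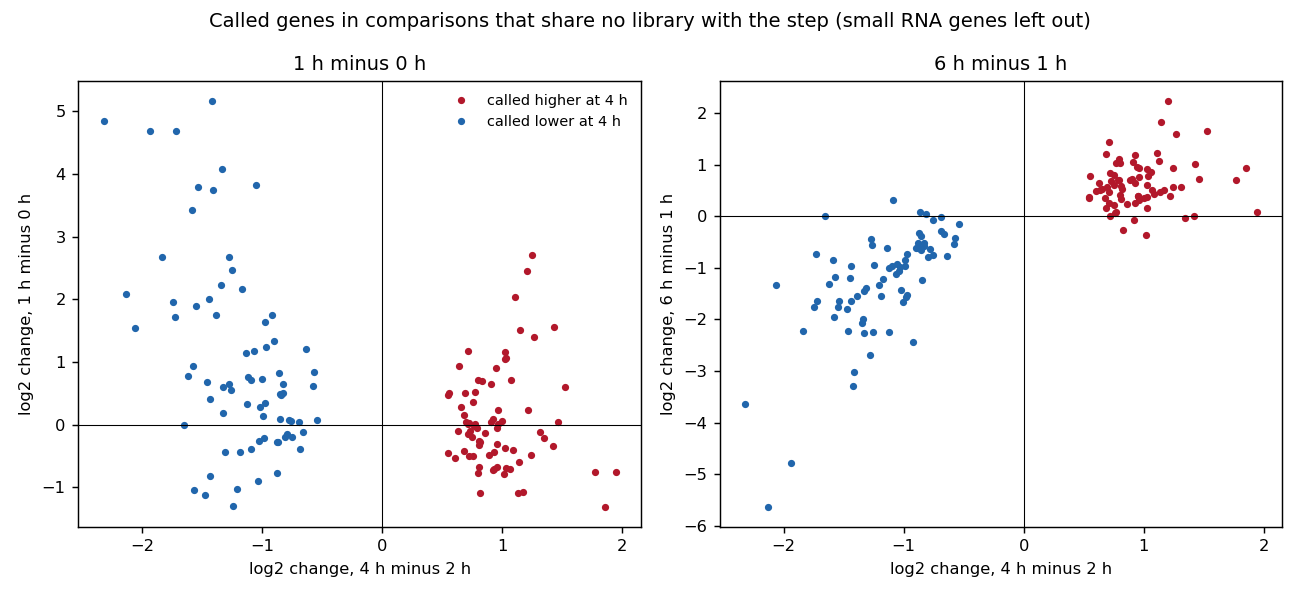
Change from 2 h to 4 h (log2(FPKM + 1)) of the called genes without small RNA genes, against their change from 0 h to 1 h and from 1 h to 6 h in libraries outside the step; 75 genes called higher are red and 75 called lower blue. From 1 h to 6 h, 71 of the 75 genes called lower had a change below 0 and 70 of the 75 called higher a change above 0.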

How the data were processed

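Poly(A) RNA was sequenced on an Illumina HiSeq from NEBNext Ultra libraries, per the labels' protocols. The authors' deposited table gives 1 FPKM value for each of 23234 genes in each of 44 libraries; TopHat2 2.1.0, Cufflinks 2.1.1 and mm9 are named in the submitters' processing notes. The values bear the word corrected in the name of the file; the kind of correction is not given in the sources used here. FPKM holds no counts, so depth is unknown, count models were not used, and no counting interval is given.

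Values were taken as log2(FPKM + 1) without further scaling. The 13907 genes that reached 1 FPKM in 3 or more of 42 libraries (14 time points with 3 libraries each) were fitted with limma 3.58.1 (R 4.3.3), one mean for each time, eBayes with a trend, and a contrast of 4 h minus 2 h. P-values were adjusted by Benjamini-Hochberg over all genes tested, within each of 3 comparisons, and the other 2 were 1 h with 0 h and 6 h with 1 h. All time points share one estimate of the spread. Sums of marker genes were compared by two-sided exact permutation tests. The scripts were tested on simulated data. Replicate numbers were not taken to pair the samples.

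Members, the 40 gene lists and the tests were chosen with earlier results of these data known. Named genes were the 12 largest rises and 12 largest falls among called genes with libraries that stood apart (small RNA genes left out), the called members of each list (4 at most, by size of change), and a set of 20 genes given whether called or not. Any other gene named was chosen after its values were seen. Some genes that the rule gives are not reported here. Alternatives were another pseudocount, filter, scaling, sample set or fit, and each of the 6 libraries left out. Overlaps of genes and promoter sequences come from RefSeq (GRCm38.p6), where 168 of 171 symbols looked up were matched, 11 by synonym. That is another build than mm9, so no other coordinates are given.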

Additional observations from a re-analysis of the deposited data

How the results depend on the processing

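No gene called in the step from 2 h to 4 h changed sign in any alternative. Against 153 called (76 higher, 77 lower), scaling to blood-cell genes gave 21 (9 and 12) and moved the median of all genes from 0.04 to 0.19. A fit to the 2 time points alone gave 6 (2 and 4), and a minimum change of 2-fold 79 (30 and 49). Leaving out 1 library gave 48 to 123 called, 17 to 71 higher and 31 to 69 lower, with the fewest without 4 h replicate 1. With the stromal mean as a covariate 225 were called. The share called higher moved from 49.7% to 39.1% with quantile normalization and to 33.9% with median-ratio scaling. A block for the replicate number, fitted to the times from 0 to 6 h, gave 436 called (231 and 205) against 150 (65 and 85) in the same times with no block, and to the 2 time points alone 5 (2 and 3). The labels do not say that equal numbers share a culture or day, and for that reason the numbers were not taken as pairs. The deviations of same-numbered libraries correlated at 0.0771, 0.0896 and 0.0313, each the best match of its library. The summed interferon list was lowest in replicate 3 at both times (1968, 2111 and 1011 FPKM at 2 h, 2171, 2148 and 845 at 4 h). These are hints from the data and not from the design, and whether equal numbers belong together was not tested. For 1 h against 0 h (4466 called) the stromal covariate gave 35, the block on 2 time points 2, the 2-fold minimum 2269 and a library left out 3241 to 4288. Stromal sums at 0 h and 1 h did not overlap, so that covariate and the time cannot be told apart there. For 6 h against 1 h (695 called) the 2 time points alone gave 296, the block 1485 (0 to 6 h) or 14 (2 time points), the 2-fold minimum 340 and a library left out 354 to 509. Of the 52 named genes that were called, 15 kept the call without each of the 6 libraries, 13 with blood-cell scaling and 50 with the stromal covariate. The alternative without small RNA genes (140 called) was chosen after seeing the data. The cause of these differences was not tested, apart from the fewer libraries fitted.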
